A study of Mus musculus with 42 samples.

Results

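The response of the newborn mouse lung to 2 days of hyperoxia was compared between pups that lack and pups that carry Nfe2l2, the gene of the transcription factor NRF2. The measure is a difference of differences on the log2 scale. The change with oxygen in wild-type (WT) pups is subtracted from the change with oxygen in knockout (KO) pups, so a positive value means that the oxygen effect was more positive in KO. It uses 12 of the 42 arrays of the series, chosen by their titles, in 4 groups of 3: KO lung after 2 days of oxygen, KO lung in room air, WT lung after 2 days of oxygen and WT lung in room air. KO pups carry the genotype Nrf-/- and WT pups Nrf+/+; the sources used here do not give the making of the allele, the strain or any array batch. All 12 pups were neonates sampled at P3, with the day of birth counted as P1. The oxygen pups spent 23 h a day in a chamber with at least 95% O2 from the day of birth, the air pups stayed in room air for the same time, and foster dams nursed all of them. Each array holds the RNA of 1 whole-lung homogenate from 1 mouse, so the 3 arrays of a group are 3 animals.

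NRF2 is made continuously and destroyed through its partner KEAP1. Oxidants and electrophiles stop that destruction, and NRF2 then binds antioxidant response elements in DNA with small MAF proteins and switches on genes for glutathione and thioredoxin metabolism, quinone and aldehyde detoxification and iron handling. Lungs of newborn mice are still building air spaces in the first days of life, and hyperoxia at that age slows the process and damages epithelium and endothelium.

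Values on the log2 scale were available for 18194 genes. Medians of the 12 arrays lay between 6.32 and 6.37, their 10th percentiles between 4.23 and 4.33, and all 12 arrays correlated best with another array of their own group (r of 0.985 to 0.997 within groups, across genes, which are not independent replicates). Markers of lung were high throughout, such as Sftpc, a surfactant protein of alveolar type 2 cells, at 14.59 to 14.75, and Scgb1a1, the club cell secretoglobin, at 14.57 to 14.76. The probe set used for Nfe2l2 read 4.72, 4.70 and 4.31 in KO oxygen pups and 4.26, 4.45 and 4.34 in KO air pups, against 10.81, 11.01 and 11.05 in WT oxygen pups and 10.63, 10.77 and 10.63 in WT air pups. KO values sat near the 10th percentile of the arrays, and no KO and WT values overlapped. In a second Nfe2l2 probe set the oxygen effect differed by −1.69 (limma adjusted p = 0.00767). Whether its level followed the deletion was not tested, so it is not used to judge the knockout.

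Transcripts of other organs were high on 4 of the 12 arrays. The score of a gene list averages, on each array, how far its genes lie from their own means, and is set against the median of the 42 arrays. The skeletal muscle score reached 4.93 in KO air replicate 2, the heart muscle score 3.25 in WT oxygen replicate 1, and the liver score 5.54 and 2.79 in WT air replicates 2 and 3. The remaining 8 arrays reached at most 1.91 for skeletal muscle, 0.41 for heart muscle and 0.30 for liver. In the difference of differences these lists had medians of −2.55 (skeletal muscle, 17 genes), −0.83 (heart muscle, 16 genes) and 2.72 (liver, 12 genes), and none of their genes passed the test. Results were therefore also computed with these scores as covariates, and without the 4 arrays. The second setting leaves WT air with a single array, assumed to vary like the other groups, and was chosen after the data had been seen.

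After 2 days the oxygen effect differed between the genotypes in 320 of 18194 genes (1.76%), called at an adjusted p under 0.05 in limma. At an unadjusted p under 0.05 there were 2643. It was more positive in KO for 243 genes (1.34%) and more negative for 77 (0.423%). The median of all genes was 0.000358, and 39 of the called genes differed by 2-fold or more. With cyclic loess normalisation 464 genes were called, 245 of them more positive and 219 more negative, so the surplus of positive differences seen with the deposited values (75.9% of calls) came to 52.8% there. With the other-organ scores as covariates 380 genes were called, and without the 4 arrays 47 were.

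The 2 oxygen effects that make up the difference were of unequal extent. In KO, oxygen changed 2288 genes (12.6%), of which 1614 rose (8.87%) and 674 fell (3.7%). In WT it changed 982 genes (5.4%), of which 525 rose (2.89%) and 457 fell (2.51%). With cyclic loess normalisation 1415 genes rose and 1238 fell in KO, so 53.3% of calls rose there, against 70.5% with the deposited values. In WT 658 rose and 530 fell with cyclic loess. All other counts here are from the deposited values. The 2 effects share no arrays. Both genotypes raised 244 genes, which are 15.1% of those raised in KO and 46.5% of those raised in WT. Both lowered 101 genes, or 15% of the KO and 22.1% of the WT genes that fell. Oxygen raised 19 genes in KO that it lowered in WT, and 0 genes moved the opposite way.

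**Figure D1:**
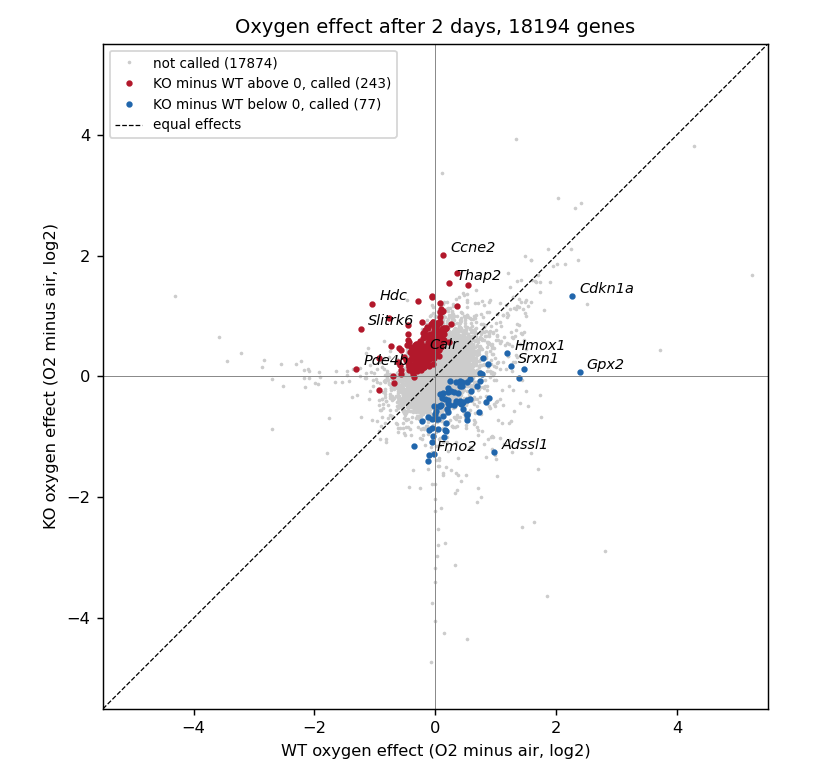
Oxygen effect at P3 (O2 minus air, log2) in KO on the vertical axis against WT on the horizontal axis, 1 point a gene (18194), with equal axes and a dashed line of equal effects. The 243 called genes with the more positive effect in KO lie above the line and the 77 with the more negative one below it, with Gpx2, Srxn1 and Hmox1 raised along the WT axis and Ccne2 along the KO axis.

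In most of the called genes the KO air mean was an extreme of the 4 group means. The genes were called on these same values, which favours KO air or WT oxygen as the lowest group for a positive difference and as the highest for a negative one, so the counts are descriptions. For the 243 genes with a positive difference, the median oxygen effect was 0.46 in KO and −0.14 in WT. The median genotype difference of these 243 was 0.000825 in oxygen and −0.60 in air. The KO air mean was the lowest of the 4 group means for 221 of the 243 (90.9%) and the WT oxygen mean for the other 22, and the WT air mean was the highest for 157. Of the 77 genes with a negative difference, the KO air mean was the highest for 52 (67.5%), and the WT oxygen mean for 24. Their median oxygen effect was −0.43 in KO and 0.31 in WT. Over all 18194 genes the KO air mean was the lowest for 33% and the highest for 32.6%. The WT oxygen mean was the lowest for 25.7% and the highest for 29.1%, and the WT air mean the highest for 19%. Across the same 12 arrays KO and WT lungs differed in 934 genes in oxygen (5.13%), of which 564 were higher (3.1%) and 370 lower in KO (2.03%). In air they differed in 3939 genes (21.6%), of which 1636 were higher (8.99%) and 2303 lower in KO (12.7%). With cyclic loess normalisation 618 were higher and 644 lower in KO in oxygen, and 2157 higher and 2242 lower in air.

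The P3 air values were also unlike those of the neighbouring ages. The median deviation of the 243 genes from their means over the 14 groups of the series was −0.11 at P1, −0.04 at P2, −0.36 at P3 and 0.09 at P4 in KO air, against −0.18, 0.06, 0.22 and 0.15 in WT air. For the 77 genes it was 0.10, 0.01, 0.33 and −0.20 in KO air and 0.23, −0.10, −0.22 and −0.10 in WT air. In oxygen at P3 the 243 genes stood at 0.08 in KO and 0.06 in WT. The genes were chosen on the P3 values. These also enter each gene's mean over the 14 groups, so the deviations at the other ages are not fully independent of that choice.

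**Figure D2:**
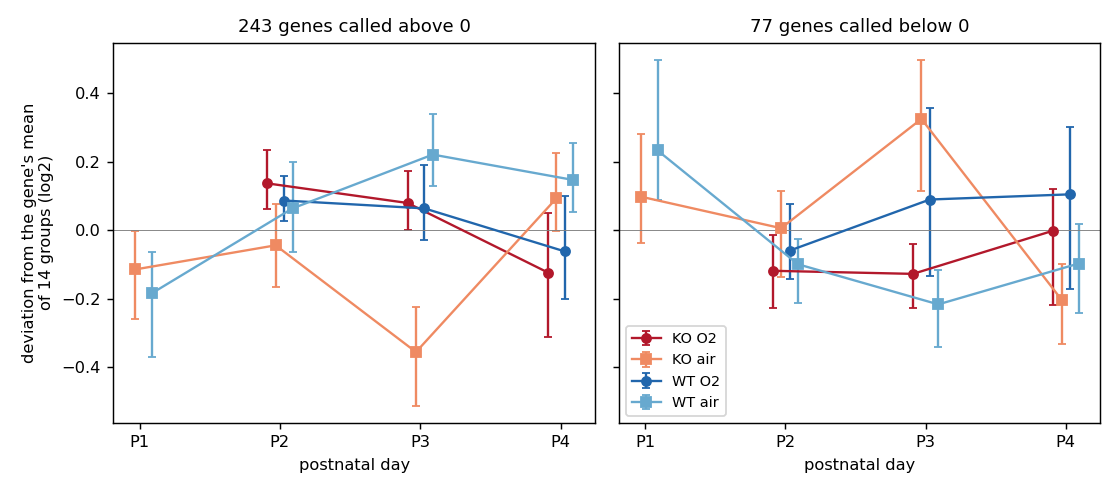
Median deviation (log2, bars show the quartiles) of the 243 and the 77 called genes from each gene's mean over the 14 groups, by postnatal day, for KO oxygen, KO air, WT oxygen and WT air. At P3 the KO air median is −0.36 on the left and 0.33 on the right, apart from the other 3 groups on the left.

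Of the 42 gene lists, the targets of NRF2 held the most called genes with a smaller oxygen effect in KO. Of 32 measured genes on the NRF2 list, 8 rose with oxygen in KO and 20 in WT, and none fell in either (8.87% and 2.89% of all genes rose). The list's median oxygen effect was 0.16 in KO and 0.55 in WT. The difference between the genotypes was called for 9 of the 32, all negative, against 0.423% of all genes called negative, and the list's median difference was −0.37. Per array the list score ran from −0.14 to −0.06 in KO oxygen pups and −0.34 to −0.25 in KO air pups, against 0.65 to 0.84 in WT oxygen pups and 0.03 to 0.20 in WT air pups. Without the 4 arrays high in other organs 1 of the 9 kept its call, and with the scores as covariates 8 members were called.

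The core of the antioxidant response element, TGACNNNGC on either strand, was looked for in the promoter stretches of RefSeq genes (GRCm38.p6, 250 bases before to 50 after the gene's start). It occurs in 4071 of 32851 promoters (12.4%), in those of 10 of 33 genes on the NRF2 list, and in 2 of the 8 called members that the table holds, Srxn1 and Txnrd1. A gene was counted if any of its promoters matched, so its share is not in the same unit as the share of promoters. Srxn1 and Txnrd1 are shown because they are the called NRF2 targets with the letters in this window. Capitals mark the match, which in both is on the minus strand relative to the gene, beginning 29 bases after the start in Srxn1 (chr2:152105274-152105573, plus strand) and 92 bases before it in Txnrd1 (chr10:82858956-82859255, plus strand, 1 of its 3 promoters). A match describes the letters, and a promoter without one may hold an element elsewhere. Only TGACNNNGC was searched, so an element spelled otherwise within the printed stretches would not be marked.

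Srxn1: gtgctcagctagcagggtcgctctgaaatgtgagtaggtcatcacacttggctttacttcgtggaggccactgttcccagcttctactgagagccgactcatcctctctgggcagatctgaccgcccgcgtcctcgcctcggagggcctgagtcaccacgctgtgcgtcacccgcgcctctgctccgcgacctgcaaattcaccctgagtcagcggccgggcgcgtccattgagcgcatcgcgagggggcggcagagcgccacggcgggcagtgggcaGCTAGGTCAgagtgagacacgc

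Txnrd1: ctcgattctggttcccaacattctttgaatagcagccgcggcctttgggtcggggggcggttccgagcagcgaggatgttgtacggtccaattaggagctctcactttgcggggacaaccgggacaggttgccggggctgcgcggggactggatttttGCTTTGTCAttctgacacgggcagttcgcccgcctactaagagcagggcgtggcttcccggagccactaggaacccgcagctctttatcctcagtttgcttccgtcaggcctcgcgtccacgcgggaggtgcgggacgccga

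Gpx2, the gastrointestinal glutathione peroxidase, which removes hydroperoxides with glutathione, had the most negative difference of all named genes. It read 6.03, 6.55 and 6.25 in KO oxygen pups, 6.39, 6.11 and 6.13 in KO air pups, 9.71, 9.51 and 9.73 in WT oxygen pups and 7.45, 7.24 and 7.10 in WT air pups. All 6 KO values lay below all 6 WT values, and the KO oxygen and air values overlapped. The oxygen effect was 0.07 ± 0.16 in KO (SE; limma adjusted p = 0.867) and 2.39 ± 0.16 in WT (limma adjusted p = 1.33e-12). The difference was −2.32 ± 0.22, a 4.99-fold lower response in KO (limma adjusted p = 1.33e-07), and it was called in all 22 alternative settings, from −2.45 to −2.16.

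Srxn1, sulfiredoxin, which restores oxidised peroxiredoxins, started level in air. It measured 7.11, 7.56 and 7.59 in KO oxygen pups and 7.23, 7.28 and 7.24 in KO air pups, against 8.48, 8.52 and 8.72 in WT oxygen pups and 7.52, 7.22 and 7.25 in WT air pups. Only the WT oxygen values stood above the rest. The difference was −1.08 ± 0.22 (limma adjusted p = 0.00826), and its other 3 probe sets were also negative, 2 of them called. Without the 4 arrays it was −0.92 (limma adjusted p = 0.225).

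Hmox1, heme oxygenase 1, which breaks down heme, gave 8.29, 8.33 and 8.41 in KO oxygen pups and 7.97, 7.98 and 7.96 in KO air pups, against 9.21, 9.42 and 9.54 in WT oxygen pups and 8.30, 8.18 and 8.12 in WT air pups. The WT oxygen values were the highest, and the KO oxygen values overlapped those of WT air. Its oxygen effect was 0.38 ± 0.13 in KO (limma adjusted p = 0.0555) and 1.19 ± 0.13 in WT (limma adjusted p = 2.41e-07), with a difference of −0.81 ± 0.19 (limma adjusted p = 0.0175). Txnrd1, thioredoxin reductase 1, rose in both genotypes. It read 9.82, 9.78 and 9.91 in KO oxygen pups and 9.60, 9.51 and 9.51 in KO air pups, against 10.71, 10.92 and 10.98 in WT oxygen pups and 10.07, 10.09 and 10.08 in WT air pups. The 4 groups did not overlap, and the difference of −0.50 ± 0.13 (limma adjusted p = 0.0408) kept its call in 8 of 22 alternative settings.

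The other 5 called NRF2 targets had differences smaller in size than those of Gpx2, Srxn1 and Hmox1. Gstm1, a glutathione transferase, had a difference of −0.62 ± 0.14 (limma adjusted p = 0.0165), Cbr3, a carbonyl reductase, of −0.69 ± 0.15 (limma adjusted p = 0.0135), and Fth1, the ferritin heavy chain that stores iron, of −0.31 ± 0.09 (limma adjusted p = 0.048). Ces1g, a carboxylesterase, and Slc7a11, the cystine importer that feeds glutathione synthesis, were called at −0.73 and −0.49. Both sat close to the arrays' 10th percentile outside WT oxygen, with group means of 4.42 ± 0.10, 4.38 ± 0.05, 5.21 ± 0.24 and 4.44 ± 0.01 for Ces1g in KO oxygen, KO air, WT oxygen and WT air pups (SD, n = 3 each).

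Several textbook NRF2 targets had differences that did not pass the test. Nqo1, the quinone reductase, had an oxygen effect of 0.15 ± 0.16 in KO and 0.87 ± 0.16 in WT and a difference of −0.72 ± 0.23 (limma adjusted p = 0.106). Gclc and Gclm, the catalytic and modifier subunits of the first enzyme of glutathione synthesis, had differences of −0.52 ± 0.20 and −0.41 ± 0.17 (limma adjusted p = 0.182 and 0.262). Gclc rose in both genotypes, by 0.55 in KO (limma adjusted p = 0.00783) and 1.07 in WT (limma adjusted p = 4.7e-06). Gsta3, a glutathione transferase, and Aox1, aldehyde oxidase, were far lower in KO whatever the exposure, at 5.74 ± 0.36 and 5.68 ± 0.24 in KO oxygen and KO air pups against 8.69 ± 0.24 and 7.96 ± 0.26 in WT oxygen and WT air pups for Gsta3. Their differences were −0.67 ± 0.40 and −0.90 ± 0.26 (limma adjusted p = 0.473 and 0.0647). Ephx1, the microsomal epoxide hydrolase, named after its values were seen, rose by 1.60 ± 0.11 in KO and 1.61 ± 0.11 in WT (limma adjusted p = 1.33e-11 and 1.17e-11).

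**Figure D3:**
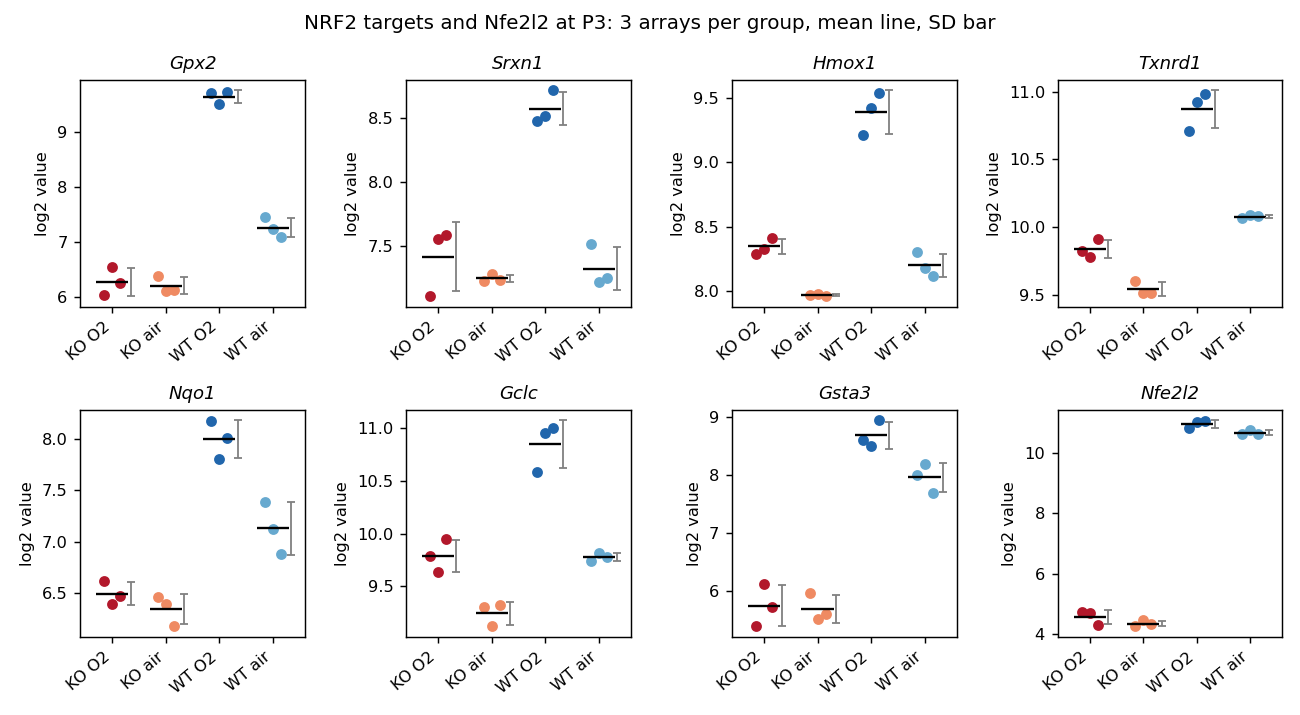
Log2 values of 7 NRF2 targets and Nfe2l2 at P3, 1 point an array, with a line at the mean and a bar of ±1 SD, for KO oxygen, KO air, WT oxygen and WT air. Gpx2, Srxn1, Hmox1 and Txnrd1 passed the test and Nqo1, Gclc and Gsta3 did not, and WT oxygen is the highest group in all 7 targets.

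Genes that copy DNA differed in the other direction. Of 28 measured genes on the DNA replication list, 21 rose in KO and 0 in WT (8.87% and 2.89% of all genes rose), with median effects of 0.84 and 0.08. The difference was positive for all 28, with a median of 0.75, and passed the test for 3 of them (1.34% of all genes were called positive). Per array the list score ran from 0.35 to 0.41 in KO oxygen pups and −0.60 to −0.24 in KO air pups, against 0.34 to 0.64 in WT oxygen pups and 0.33 to 0.48 in WT air pups. KO air therefore lay apart from the other 3 groups, which overlapped, and in air 22 of the 28 genes were lower in KO than in WT (12.7% of all genes). The count of 3 was 10 with the other-organ scores as covariates, 13 in a fit on the 12 arrays alone, 0 without WT oxygen replicate 1 and 0 without the 4 arrays high in other organs.

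Pola1 encodes the catalytic subunit of DNA polymerase alpha, which starts new DNA strands. It read 8.67, 8.61 and 8.76 in KO oxygen pups, 7.44, 7.47 and 7.16 in KO air pups, 8.41, 8.78 and 8.66 in WT oxygen pups and 8.85, 8.62 and 8.57 in WT air pups. Only the KO air values stood apart, below all others. The difference was 1.38 ± 0.30, 2.6-fold (limma adjusted p = 0.0135), from an oxygen effect of 1.32 ± 0.21 in KO and −0.06 ± 0.21 in WT. A second probe set, at a mean level of 4.29, gave −0.13 (limma adjusted p = 0.719). Pola1 kept its call in 19 of 22 alternative settings, with a lowest value of 0.63. Over the ages its KO air mean was 6.91 at P1, 7.85 at P2, 7.36 at P3 and 8.80 at P4, against 6.87, 7.80, 8.68 and 8.67 in WT air.

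E2F factors switch on replication genes as cells enter S phase. Their sites TTTGGCGC or TTTCCCGC, on either strand, occur in 514 of 32851 RefSeq promoters (1.56%) and in those of 9 of 24 genes on the replication list that the table holds. The Pola1 promoter (chrX:93632106-93632405, minus strand, GRCm38.p6) is shown because Pola1 is the called replication gene the table holds. Its match, in capitals, begins 138 bases before the start on the strand opposite to the gene. It was chosen after the values were seen, and a match describes the letters only. Genes on the list were again counted if any of their promoters matched, beside a share of promoters.

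Pola1: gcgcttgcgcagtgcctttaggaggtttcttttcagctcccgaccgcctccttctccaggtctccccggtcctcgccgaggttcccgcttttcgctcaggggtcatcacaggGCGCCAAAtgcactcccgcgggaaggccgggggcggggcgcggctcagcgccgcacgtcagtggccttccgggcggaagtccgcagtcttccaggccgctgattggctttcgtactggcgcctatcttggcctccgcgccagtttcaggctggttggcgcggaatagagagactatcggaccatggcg

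Ccne2, cyclin E2, which drives entry into S phase, had the largest difference on the list. It read 8.71, 8.66 and 8.75 in KO oxygen pups and 7.02, 6.51 and 6.56 in KO air pups, against 8.55, 9.24 and 8.88 in WT oxygen pups and 8.89, 8.69 and 8.72 in WT air pups. KO air was again alone and low, and the difference was 1.88 ± 0.41 (limma adjusted p = 0.0138). Mcm4, a subunit of the replicative helicase, measured 10.82, 10.71 and 10.78 in KO oxygen pups and 10.18, 9.90 and 9.95 in KO air pups, against 10.60, 10.86 and 10.73 in WT oxygen pups and 10.99, 10.86 and 10.84 in WT air pups. The same group was low, and the difference of 0.93 ± 0.24 (limma adjusted p = 0.0397) kept its call in 10 of 22 alternative settings. Dscc1, part of a clamp loader that acts in sister chromatid cohesion, was off the list but among the most positive genes at 1.54 ± 0.40 (limma adjusted p = 0.0382), and kept its call in 9 of 22.

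Other members of the replication list did not pass. The helicase subunits Mcm2, Mcm3, Mcm5, Mcm6 and Mcm7 had differences of 0.87, 0.98, 1.07, 0.83 and 0.93, and each rose with oxygen in KO. Lig1, the ligase that seals new strands, had a difference of 0.95 ± 0.26 (limma adjusted p = 0.0515). Genes of mitosis gave 0 calls of 29, with a median difference of 0.29 and 26 of 29 positive, and 0 calls in either oxygen effect. Mki67, the marker of cycling cells, had a difference of 0.59 ± 0.40 (limma adjusted p = 0.545). The KO air arrays were uneven in the mitosis score, with 0.16 in replicate 1 against −0.61 and −0.54 in replicates 2 and 3. Without replicate 1 of KO air 4 replication genes were called, and 318 genes in all. In a homogenate, fewer cells of a kind and less RNA per cell cannot be told apart.

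**Figure D4:**
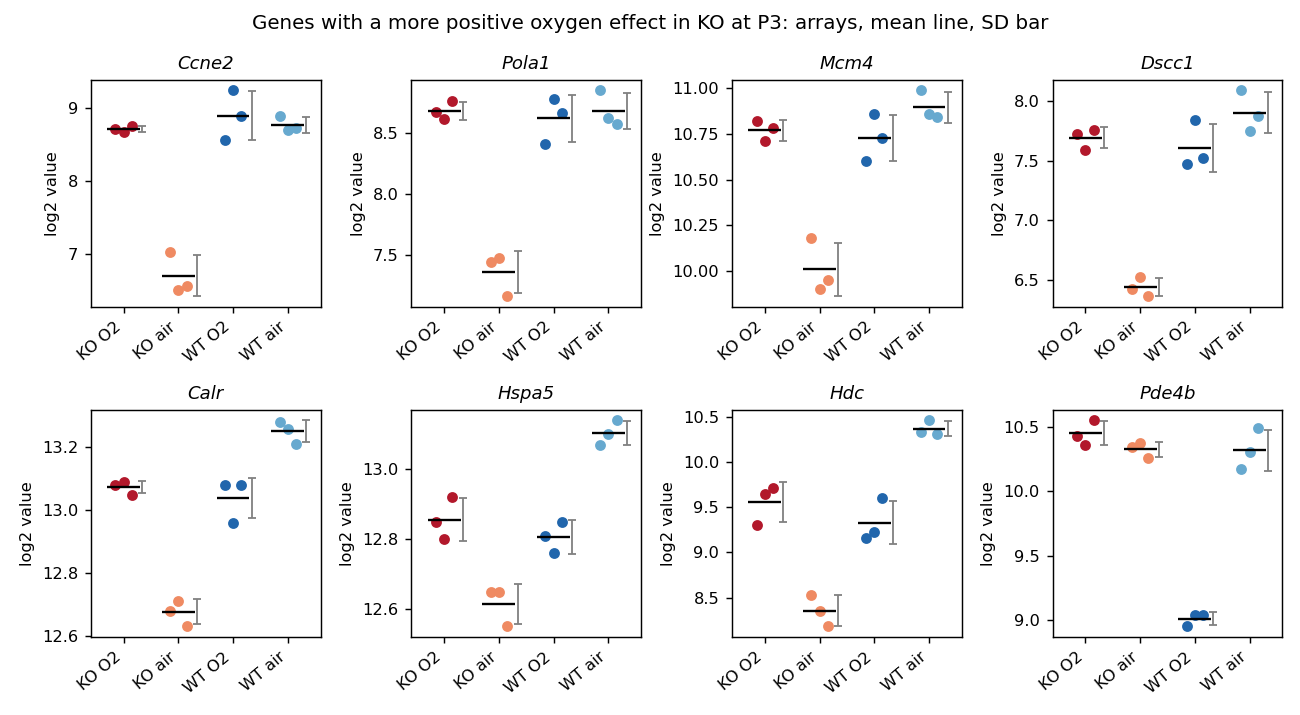
Log2 values at P3 of 8 genes with a more positive oxygen effect in KO, 1 point an array, with a line at the mean and a bar of ±1 SD, for KO oxygen, KO air, WT oxygen and WT air. KO air is the lowest group in 7 panels, and in Pde4b WT oxygen is.

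Of 19 measured genes on the heat shock and chaperone list, 8 rose with oxygen in KO (8.87% of all genes rose), while in WT 3 rose and 3 fell (2.89% and 2.51% of all genes). The difference was called positive for 4 and negative for 1, against 1.34% and 0.423% of all genes, with a median of 0.23. The 4 positive ones, Calr, Hspa5, Hsp90b1 and Canx, encode chaperones of the endoplasmic reticulum, which fold secreted proteins. Calr, calreticulin, measured 13.08, 13.09 and 13.05 in KO oxygen pups, 12.68, 12.71 and 12.63 in KO air pups, 13.08, 12.96 and 13.08 in WT oxygen pups and 13.28, 13.26 and 13.21 in WT air pups. KO air was lowest and WT air highest, and the oxygen groups overlapped between them. The oxygen effect was 0.40 ± 0.06 in KO (limma adjusted p = 2.2e-05) and −0.21 ± 0.06 in WT (limma adjusted p = 0.0287). The difference of 0.61 ± 0.08 (limma adjusted p = 7.15e-05) was called in all 22 alternative settings, and both its other probe sets were called with the same sign.

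Hspa5, the chaperone BiP, and Hsp90b1, its partner GRP94, followed the same order. Hspa5 read 12.85, 12.80 and 12.92 in KO oxygen pups and 12.65, 12.65 and 12.55 in KO air pups, against 12.81, 12.76 and 12.85 in WT oxygen pups and 13.07, 13.10 and 13.14 in WT air pups. The air groups were the extremes. Its difference was 0.54 ± 0.10 (limma adjusted p = 0.00261), that of Hsp90b1 0.56 ± 0.11 (limma adjusted p = 0.00546), and that of Canx, the membrane chaperone calnexin, 0.40 ± 0.09 (limma adjusted p = 0.0182). The ratios behind these differences were small, 1.53-fold for Calr, 1.45-fold for Hspa5, 1.48-fold for Hsp90b1 and 1.32-fold for Canx. Without the 4 arrays Hspa5 and Hsp90b1 had limma adjusted p of 0.0973 and 0.271.

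The cytosolic heat shock gene Hspa1b, which encodes an inducible HSP70, went the other way. It measured 9.10, 9.0 and 8.87 in KO oxygen pups and 8.85, 8.66 and 9.08 in KO air pups, against 10.04, 9.44 and 9.74 in WT oxygen pups and 8.41, 8.24 and 8.17 in WT air pups. KO values overlapped between exposures and WT values did not. Oxygen changed it by 0.13 ± 0.22 in KO and 1.47 ± 0.22 in WT (limma adjusted p = 3.87e-05), a difference of −1.34 ± 0.31 (limma adjusted p = 0.0176). Its near-identical neighbour Hspa1a, which may share probes with it, had a difference of −1.05 ± 0.31 (limma adjusted p = 0.077).

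Of the 320 called genes, Hdc had the most positive difference. It encodes histidine decarboxylase, the enzyme that makes histamine, best known from mast cells and basophils. It read 9.30, 9.65 and 9.71 in KO oxygen pups, 8.53, 8.35 and 8.19 in KO air pups, 9.16, 9.22 and 9.60 in WT oxygen pups and 10.33, 10.46 and 10.31 in WT air pups. The air groups were the extremes and the oxygen groups overlapped. Hdc rose with oxygen by 1.20 ± 0.18 in KO (limma adjusted p = 2.43e-05) and fell in WT, with a change of −1.04 ± 0.18 (limma adjusted p = 0.000337). The difference was 2.24 ± 0.25, 4.73-fold (limma adjusted p = 3.18e-06), was called in all 22 alternative settings, and was 1.82 in its other probe set (limma adjusted p = 2.37e-05). The remaining 9 mast cell genes measured gave 0 calls. Among them Cpa3, the mast cell carboxypeptidase, had a difference of 0.06 ± 0.45 and Kit, the stem cell factor receptor, one of 0.33 ± 0.27.

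Pde4b, a phosphodiesterase that breaks down cyclic AMP, differed through WT alone. It gave 10.43, 10.36 and 10.55 in KO oxygen pups and 10.34, 10.37 and 10.26 in KO air pups, against 8.95, 9.04 and 9.04 in WT oxygen pups and 10.17, 10.30 and 10.49 in WT air pups. The WT oxygen values lay more than 1 log2 unit under all others. The difference was 1.43 ± 0.24 (limma adjusted p = 0.00098), and 1.70 in a second probe set (limma adjusted p = 0.000147). The remaining probe sets gave 0.55, −0.04, −0.04 and 0.005, at mean levels of 8.07, 4.66, 4.07 and 3.72, and none was called. Pde4b kept its call in 21 of 22 alternative settings, with a lowest value of 0.60.

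Thap2, a zinc finger protein of the THAP family, had a difference of 1.31 ± 0.16 (limma adjusted p = 7.31e-06), called in all 22 alternative settings. Its KO air values of 6.62, 6.89 and 6.62 lay below its KO oxygen values of 8.35, 8.12 and 8.28 and below both WT groups, at 8.80 ± 0.09 in WT oxygen and 8.56 ± 0.08 in WT air pups (SD, n = 3 each). Ptger3, a receptor for prostaglandin E2, had the same arrangement, with KO air at 7.32 ± 0.08 and KO oxygen at 9.04 ± 0.13, WT oxygen at 9.10 ± 0.24 and WT air at 8.75 ± 0.22 (SD, n = 3 each), and a difference of 1.36 ± 0.28 (limma adjusted p = 0.00921). Rtkn2, a marker of alveolar type 1 cells, had a difference of 1.31 ± 0.32 (limma adjusted p = 0.0236), but it was the only 1 of 16 type 1 genes called positive, and their median was −0.06.

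The other 4 named genes with positive differences encode membrane proteins. Slitrk6, a leucine-rich transmembrane protein, had a difference of 2.02 ± 0.33 (limma adjusted p = 0.000842) with an oxygen effect of 0.78 in KO and −1.23 in WT. Col25a1, a membrane collagen, had one of 1.25 ± 0.25 (limma adjusted p = 0.0061), Slc17a2, a solute carrier, one of 1.72 ± 0.34 (limma adjusted p = 0.00708), and Shisa3, a membrane protein that restrains WNT signalling, one of 1.39 ± 0.31 (limma adjusted p = 0.0166). Col25a1 and Slitrk6 were highest in WT air, and Slc17a2 and Shisa3 in KO oxygen. Slitrk6 kept its call in 20 of 21 alternative settings, Col25a1 and Slc17a2 in 20 of 22, and Shisa3 in 17 of 21. Slc17a2 lost its call with the other-organ scores as covariates, and Col25a1 with the mean of all probe sets.

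Among the named genes with negative differences, Fmo2, Scnn1a, Mpzl2 and Rprd2 had all KO air values above those of the other groups. Adssl1 and Slc2a4 also had their highest group mean in KO air, with values that overlapped those of WT oxygen. Fmo2, the lung's flavin monooxygenase, measured 10.57, 10.87 and 10.59 in KO oxygen pups and 11.92, 11.92 and 12.09 in KO air pups, against 10.09, 10.48 and 10.44 in WT oxygen pups and 10.47, 10.49 and 10.34 in WT air pups. KO air was above all other arrays. The difference was −1.20 ± 0.28 (limma adjusted p = 0.0215), with the same sign in its other 4 probe sets, 2 of them called. Over the ages its KO air mean was 11.93, 11.68, 11.98 and 10.80 at P1 to P4, against 12.52, 10.95, 10.43 and 10.92 in WT air. Fmo2 was the 1 called gene of 10 measured on the club cell list, whose median was 0.09.

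Scnn1a, the alpha subunit of the epithelial sodium channel that clears fluid from air spaces, read 10.14, 10.08 and 10.06 in KO oxygen pups and 10.79, 10.99 and 11.53 in KO air pups, against 9.55, 9.79 and 9.81 in WT oxygen pups and 9.75, 9.47 and 9.50 in WT air pups. KO air was again highest, and the difference was −1.15 ± 0.24 (limma adjusted p = 0.00855). Mpzl2, an epithelial adhesion protein, had one of −1.25 ± 0.28 (limma adjusted p = 0.0171) with KO air at 9.18 ± 0.40 and WT air at 7.59 ± 0.04 (SD, n = 3 each). Rprd2, a binding protein of RNA polymerase II, had one of −1.28 ± 0.28 (limma adjusted p = 0.012) that was not called in its other 7 probe sets, 2 of them negative and 5 positive. Averaged over all its probe sets the difference was −0.11 (limma adjusted p = 0.642).

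Scnn1a is also a target of glucocorticoids, and the glucocorticoid list was uneven in KO air. Its score was 0.01, 0.58 and 0.79 in KO air replicates 1, 2 and 3, and ran from 0.25 to 0.33 in KO oxygen, from −0.30 to −0.12 in WT oxygen and from −0.38 to −0.27 in WT air pups. None of its 15 genes was called for the difference, with a median of −0.41, while 9 were higher and 1 lower in KO than in WT air (8.99% and 12.7% of all genes). What part the uneven KO air arrays had in the results was not tested beyond leaving each array out.

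Adssl1 and Slc2a4 also had negative differences. Both lost their calls with the other-organ scores, skeletal and heart muscle among them, as covariates. What part muscle transcripts had in them was not tested further. Adssl1, the muscle form of adenylosuccinate synthase, measured 7.48, 8.05 and 7.48 in KO oxygen pups and 7.94, 10.20 and 8.62 in KO air pups, against 9.28, 8.73 and 8.64 in WT oxygen pups and 7.90, 7.61 and 8.21 in WT air pups. KO air replicate 2, the array with the high skeletal muscle score, held the highest Adssl1 value. WT oxygen replicate 1, with the high heart score, held the highest of its group. WT oxygen replicates 2 and 3 also lay above all WT air values. Their skeletal muscle scores were −0.13 and 0.24 and their heart muscle scores 0.41 and 0.24. In KO air replicates 1 and 3 the skeletal muscle scores were 0.43 and 1.91. The difference was −2.23 ± 0.49 (limma adjusted p = 0.0135), and −1.40 without the 4 arrays (limma adjusted p = 0.252). Slc2a4, the insulin-responsive glucose transporter of muscle and fat, peaked on the same 2 arrays, with 7.71, 8.69 and 7.80 in KO air and 8.38, 7.67 and 7.82 in WT oxygen pups. Its difference of −1.17 ± 0.32 (limma adjusted p = 0.0479) was −0.59 without the 4 arrays (limma adjusted p = 0.593).

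The other 4 named genes with negative differences lost their calls in some alternative settings. Ahnak2, a scaffold protein, rose in WT by 1.38 ± 0.26 (limma adjusted p = 0.000928), with a difference of −1.41 ± 0.37 (limma adjusted p = 0.0408). Mkrn1, a ubiquitin ligase, had a difference of −1.31 ± 0.33 (limma adjusted p = 0.0327), and its other 5 probe sets had the same sign but were not called. Fam220a had one of −1.24 ± 0.31 (limma adjusted p = 0.0305), and Fech, the last enzyme of heme synthesis, one of −1.14 ± 0.31 (limma adjusted p = 0.048). The erythroid list, with 10 genes measured, gave 0 calls and a median of −0.19. Ahnak2 kept its call in 9 of 21 alternative settings, Mkrn1 and Fam220a in 13 of 22, and Fech in 7 of 22.

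The p53 pathway, which halts the cell cycle after DNA damage, responded in both genotypes. Of 23 measured targets, 17 rose in KO and 15 in WT, against 8.87% and 2.89% of all genes. The difference was called for 1 of the 23, close to the 1.76% of all genes. That gene was Cdkn1a, the cell cycle inhibitor p21, at 12.30, 12.25 and 12.35 in KO oxygen pups and 10.42, 11.44 and 11.06 in KO air pups, against 12.13, 12.39 and 12.42 in WT oxygen pups and 10.04, 10.05 and 10.05 in WT air pups. The oxygen groups overlapped, and KO air lay above WT air with a wide spread. Its oxygen effect was 1.33 ± 0.16 in KO (limma adjusted p = 1.03e-06) and 2.26 ± 0.16 in WT (limma adjusted p = 1.17e-11). The difference of −0.94 ± 0.23 (limma adjusted p = 0.0259) kept its call in 10 of 22 alternative settings.

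No difference was called for Sftpc, Eln, Vegfa, Il6, Saa3, Mt1 or Per1. Sftpc differed by 0.05 ± 0.07, Eln, the elastin gene, by −0.34 ± 0.19, and Vegfa, an endothelial growth factor, by −0.01 ± 0.21, with limma adjusted p of 0.822, 0.423 and 0.987. Il6, an inflammatory cytokine, rose with oxygen in WT by 1.34 ± 0.37 (limma adjusted p = 0.0295) and had an effect of 0.86 ± 0.37 in KO (limma adjusted p = 0.138), with a difference of −0.48 ± 0.53 (limma adjusted p = 0.75). Saa3, an acute phase protein, had a single high value, 10.61 in WT oxygen replicate 3, and a difference of −0.33 ± 0.57, or 0.45 without that array. Mt1, a metallothionein that binds zinc, had a difference of −0.47 ± 0.36 (limma adjusted p = 0.612). Per1, a clock gene that glucocorticoids also induce, had one of 0.23 ± 0.40 (limma adjusted p = 0.863), although KO exceeded WT by 2.54 ± 0.28 in oxygen (limma adjusted p = 4.68e-07) and 2.31 ± 0.28 in air (limma adjusted p = 6.91e-07).

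In all, 11 of the 42 gene lists held a called gene and 31 held none. Of 18 macrophage genes, 6 rose in KO and 8 in WT (8.87% and 2.89% of all genes rose), with 0 differences called and a median of −0.02. Targets of ATF4, the factor of the amino acid stress response, rose in both, 11 of 18 in KO and 10 of 18 in WT (the same shares of all genes apply), and their 1 called difference was Slc7a11. The clock list had 1 positive call, Nr1d2 at 1.12 ± 0.26 (limma adjusted p = 0.0172), a repressor of the clock, and 1 negative, Arntl at −0.74 ± 0.15 (limma adjusted p = 0.00782), which encodes the clock activator BMAL1. The sources used here do not give the hour of sampling. Single positive calls were Cxcl12, a chemokine of stromal and endothelial cells, at 0.70 ± 0.17 (limma adjusted p = 0.0279), and Slc39a10, a zinc importer, at 0.55 ± 0.13 (limma adjusted p = 0.0213). Subunits of the respiratory chain gave 0 calls of 18, all with a negative difference and a median of −0.28. Their score was highest on arrays with high muscle scores, at 0.57 in WT oxygen replicate 1 (0.10 and 0.16 in replicates 2 and 3) and 0.29 in KO air replicate 2 (−0.12 and −0.13 in replicates 1 and 3), and the part of muscle in it was not tested. Cholesterol synthesis genes gave 0 calls of 16 and a median of 0.36, and endothelial genes 0 of 22 and 0.18.

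**Figure D5:**
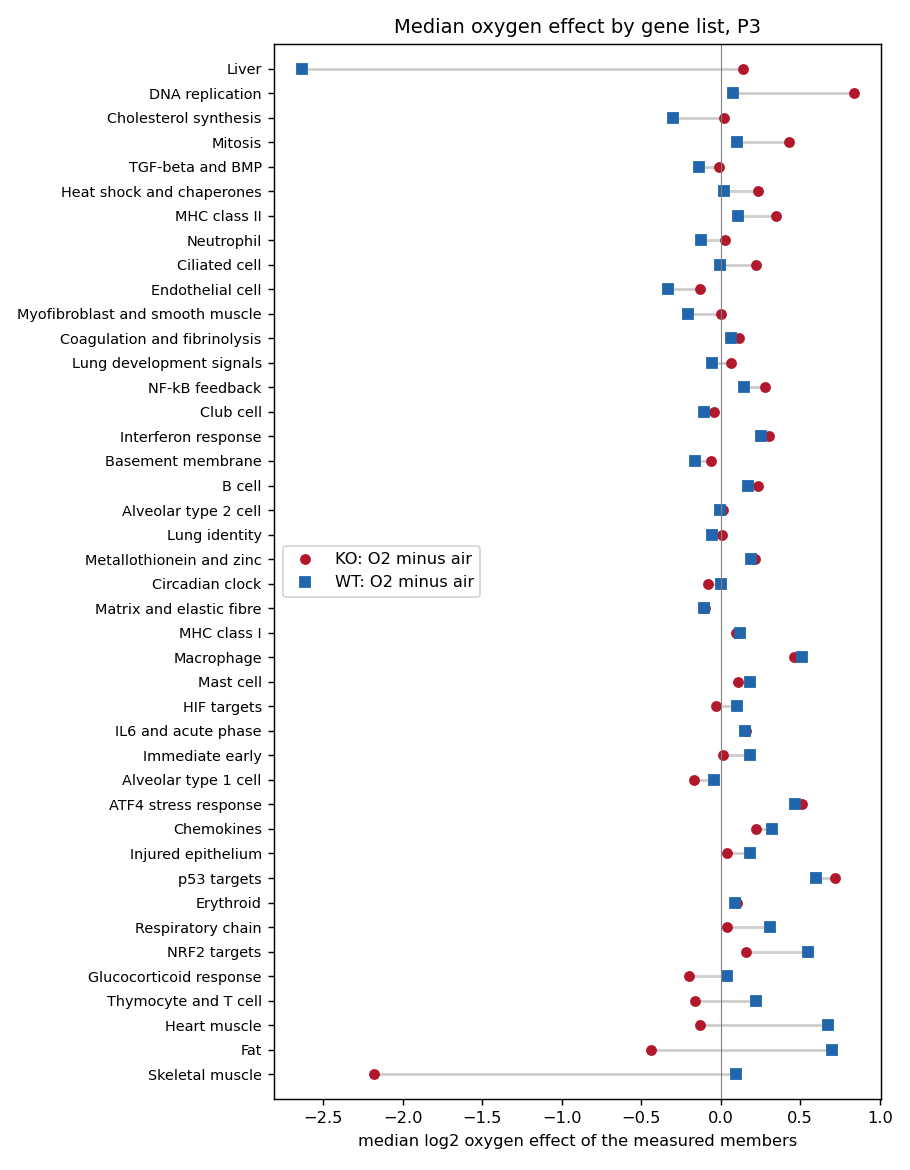
Median oxygen effect (O2 minus air, log2) of the measured members of each of 42 gene lists at P3, in KO (circles) and WT (squares), sorted by the difference. DNA replication lies at 0.84 in KO and 0.08 in WT, NRF2 targets at 0.16 in KO and 0.55 in WT, and the widest gaps belong to the liver and skeletal muscle lists.

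The same difference of differences was computed after 1 and 3 days, each from 12 other arrays. It was called for 489 genes (2.69%) after 1 day, 244 of them positive (1.34%) and 245 negative (1.35%). After 2 days it was called for 320, and after 3 days for 102 (0.561%), 29 of them positive (0.159%) and 73 negative (0.401%). Of the 243 genes positive after 2 days, 183 were also positive after 1 day, where 43% of all genes were, with a median of 0.16, 27 called positive and 1 called negative. After 3 days 111 of them were positive, where 56.5% of all genes were, with a median of −0.03 and 4 called in each direction. Of the 77 negative genes, 61 were negative after 1 day and 39 after 3 days, where 57% and 43.5% of all genes were, and 6 and 7 of them were called negative.

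A direct test of the change between days, which uses the P3 arrays on 1 side, called 1 gene for day 2 minus day 1 (0.0055%; 2115 at an unadjusted p under 0.05), Pde4b, and 297 for day 2 minus day 3 (1.63%). NRF2 targets stayed on the negative side on every day, with 9 of 32 called after 1 day, 9 after 2 days and 12 after 3 days and medians of −0.35, −0.37 and −0.52. Gpx2 differed by −1.68, −2.32 and −2.35 over the 3 days and Srxn1 by −1.15, −1.08 and −2.03. The replication list had medians of −0.30, 0.75 and −0.02, with 0 of 28 called after 1 or 3 days. Hdc differed by 0.75, 2.24 and 1.13 and Calr by 0.14, 0.61 and 0.42.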

How the data were processed

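Total RNA of single lung homogenates was hybridised to Affymetrix 3' expression arrays. The deposited values are on the log2 scale, 1 per probe set and array, and were made by the authors with GCOS and RMA, per the submitters' processing notes, which give no versions. RMA corrects background, brings all arrays to 1 distribution and summarises probes, so a shift common to most genes cannot be seen. Values were used as deposited.

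Of 45101 probe sets, 34958 carry 1 gene symbol in the platform annotation, 932 several and 9211 none listed, and only the first kind was used. Where a gene had several, as 9012 did, the probe set of highest mean over 42 arrays stood for it, which left 18194 genes, 18146 of them in the RefSeq symbol table of GRCm38.p6. Groups came from sample titles. All 42 arrays entered 1 limma model (limma 3.58.1, R 4.3.3, version 1.17.8 of data.table) with a mean for each of the 14 groups, with 28 residual degrees of freedom, 31.4 after moderation, 9 contrasts, two-sided tests and Benjamini-Hochberg adjustment over all genes. SE is the fit's standard error and SD that of 3 arrays. The number of arrays limits the precision.

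The comparison, the 42 gene lists (665 genes measured) and the named genes were chosen with earlier results of these data known. Named were the 12 most positive and 12 most negative called genes with a group mean of at least 6.5, leaving out predicted genes and sex genes, the 3 called genes of smallest p in each list with 3 or more calls, and Nfe2l2, Nqo1, Gclc, Gclm, Hmox1, Gsta3, Gpx2, Aox1, Srxn1, Txnrd1, Cdkn1a, Mki67, Sftpc, Eln, Saa3, Il6, Per1, Vegfa and Mt1. Other called members of lists were named after their values were seen. Alternatives were cyclic loess, array weights, robust variances with a trend on intensity, the mean of all probe sets, the upper 60 percent of genes by level, a block on the replicate number, a fit limited to each contrast's arrays, other-organ scores or a sex score as covariates, a threshold of 0.01, each array left out and, added later, the 4 arrays high in other organs left out. The procedure was tested on simulated data.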

Additional observations from a re-analysis of the deposited data

Results flagged for a closer look

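For 14 of the named genes the difference of differences itself changed between days. In limma, with adjustment over all genes, day 2 minus day 3 gave 1.85 for Slitrk6 (adjusted p = 0.0371), 3.04 for Slc17a2 (adjusted p = 0.00206), 1.67 for Pde4b (adjusted p = 0.012) and 1.88 for Pola1 (adjusted p = 0.0234). It gave 1.65 for Rtkn2 (adjusted p = 0.0499), 1.08 for Thap2 (adjusted p = 0.0123) and 2.06 for Col25a1 (adjusted p = 0.00263). Slc17a2 had the widest change, with 1.72 after 2 days and −1.32 after 3 days.

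Among genes with negative differences, day 2 minus day 3 gave −2.78 for Adssl1 (adjusted p = 0.0356), −1.86 for Hspa1b (adjusted p = 0.0265), −1.83 for Mkrn1 (adjusted p = 0.0404), −1.71 for Fam220a (adjusted p = 0.0414), −1.50 for Fmo2 (adjusted p = 0.0482) and −1.30 for Scnn1a (adjusted p = 0.0418). The HSP70 gene Hspa1b stood at −1.34 after 2 days and 0.52 after 3 days. Txnrd1 went the other way, with 0.86 for day 2 minus day 3 (adjusted p = 0.0147), from −0.50 after 2 days and −1.35 after 3 days. Pde4b was the 1 gene called for day 2 minus day 1, at 2.42 (adjusted p = 0.00063), with 1.43 after 2 days and −0.99 after 1 day. These genes were named for their day 2 values, so the size on that side of each contrast was selected.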

How the results depend on the processing

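Of the alternatives to single named genes, 848 gave the same call and direction, 162 lost the call, 6 gained one and 12 turned the sign, and the cause was not tested. Gpx2, Hdc, Calr and Thap2 were called in every setting run. Counts over all genes below are in the order difference of differences on day 2, oxygen effect in KO, oxygen effect in WT, genotype in oxygen, genotype in air, and the differences on day 1 and day 3, where given. Array weights called 2084, 4391, 3739, 3820, 6447, 1383 and 788 genes, with 815 for day 2 minus day 1 and 1877 for day 2 minus day 3, and 15 NRF2, 17 replication and 9 chaperone genes. A threshold of 0.01 left 83, 1120, 382, 351, 2275, 41 and 28, with 27 for day 2 minus day 3, 3 NRF2 and 0 replication genes. Without the 4 arrays high in other organs, chosen after seeing the data, 47 genes were called for the day 2 difference, 119 for oxygen in WT, 436 for genotype in oxygen and 1722 in air, with 1 NRF2, 0 replication and 1 chaperone gene.

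The mean of all probe sets gave 172 genes on day 2, 2 for day 2 minus day 1, 127 for day 2 minus day 3, 1 replication and 2 chaperone genes. A fit on the arrays of each contrast gave 483 for oxygen in WT, 5 on day 1, 48 on day 3, 3 for day 2 minus day 1, 478 for day 2 minus day 3 and 13 replication genes. Other-organ scores gave 4 on day 1, 163 on day 3 and 10 replication genes. The sex score gave 290 on day 1, 45 on day 3 and 158 for day 2 minus day 3. Cyclic loess gave 219 on day 3 and 10 for day 2 minus day 1. The upper 60 percent of genes gave 10 for day 2 minus day 1 and 5 replication genes.

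Leaving out 1 array gave 137 to 318 genes for the day 2 difference (lowest without KO oxygen replicate 3, and 143 without WT oxygen replicate 1, 152 and 157 without WT air replicates 2 and 1, 168 without KO oxygen replicate 1, 191 and 211 without KO air replicates 3 and 2). It gave 1356 to 1899 for oxygen in KO, 458 to 792 for oxygen in WT, 357 to 645 for genotype in oxygen, 2735 to 3439 in air, 96 to 1658 on day 1, 36 to 409 on day 3, 1 to 675 for day 2 minus day 1 and 87 to 531 for day 2 minus day 3. NRF2 calls ran from 5 to 8, replication from 0 to 4 and chaperones from 3 to 4.

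The sign turned only in genes that were not called in the main fit. Nfe2l2 was among them, but it was called in 1 of 22 alternative settings, and its lowest value was −0.871. Sftpc read −0.0205 with cyclic loess, −0.0736 with the mean of probe sets, −0.0305 with other-organ scores and −0.0501 without the 4 arrays. With 1 array left out, Vegfa ran from −0.159 (without WT oxygen replicate 1) to 0.0933 (without WT air replicate 1), Saa3 from −0.751 (without WT oxygen replicate 2) to 0.450 (without WT oxygen replicate 3), Per1 from −0.0251 (without KO air replicate 1) to 0.372 (without KO air replicate 2), and Nfe2l2 from −0.129 (without KO oxygen replicate 1) to 0.0763 (without KO oxygen replicate 3).

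Same-numbered arrays of different groups did not deviate together (median r −0.05 over 18 pairs, 2 above 0.1, against 0.03 over 36 pairs of unlike number, 11 above 0.1), so the replicate numbers are not taken as pairing. With the replicate number as a block 315 genes were called, with 8 NRF2, 4 replication and 4 chaperone genes. Of the 501 other probe sets of 230 called genes, 361 had the same sign, 70 were called with it and 2 against it.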

Other observations

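Beside the listed chaperones, 10 other called genes of protein folding and glycosylation in the endoplasmic reticulum had positive differences. They were picked, after their values were seen, from the 243 genes called positive (1.34% of all genes). Pdia6, a disulfide isomerase, differed by 0.80 ± 0.10 (limma adjusted p = 7.31e-06) and Cnpy2 by 0.78 ± 0.10 (limma adjusted p = 4.29e-05). Uggt2 and Uggt1, which sense misfolded glycoproteins, differed by 0.83 and 0.39, Fkbp2 by 0.58, Creld2 by 0.57, and Magt1 and Rpn1, subunits of oligosaccharyl transferase complexes, by 0.57 and 0.42. Pdia3 differed by 0.43 and Erp29 by 0.40. In Pdia6 the values were 10.45, 10.46 and 10.46 in KO air pups, and its oxygen effect was 0.45 in KO and −0.34 in WT.

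Genes of DNA repair and the S phase outside the replication list also had positive differences and were likewise picked afterwards. Rbl1, a pocket protein that binds E2F factors, differed by 1.02 ± 0.24, Wdhd1, a replication fork protein, by 0.94, E2f7, an E2F repressor, by 0.91, Prkdc, the kinase of end joining, by 0.82, Timeless by 0.78, Rpa1 by 0.62 and Atm, the kinase of double-strand breaks, by 0.61. All 7 were lower in KO than in WT air, with differences of −1.24 to −0.52, but picking positive differences favours that order. Among the 243 genes called positive, the genotype difference in air was positive in only 3. No test was made of either group. Genes of these kinds that were measured but not called positive were not counted, so no share can be given.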
